A study of Homo sapiens with 17 samples.

Results

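The G1 cyclins, their kinases and the proteins that hold them back were followed in 6 human acute myeloid leukaemia (AML) cell lines treated with D9, an analog of 3-deazaneplanocin A (DZNep). The genes were chosen by name: the D-type cyclins CCND1, CCND2 and CCND3, the E-type cyclin CCNE1, the kinases CDK4 and CDK6, the inhibitors CDKN1B, CDKN2C and CDKN2D, and RB1. Of these 10 genes, 9 had at least 1 probe in the annotation used, out of 20046 genes with a probe. Together they had 13 of the 47323 probes on the array, and CDKN2C was not analysed here. A filter on dim probes left 12 of the 13 for testing, 1 of the 2 CDKN2D probes being under it, among 28394 probes tested in all.

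MV-4-11, TF-1 and MOLM-14 were the sensitive lines and KG-1a, THP-1 and Mono-Mac-1 the resistant ones, a division the study made by their response to the drug. Each line was left untreated or treated for 48 hours with D9 at 1 μM or 5 μM, except that MV-4-11 had no 5 μM array here, which gave 17 arrays. The TF-1 medium contained interleukin 3, and media and serum also varied among the other lines. Each line and condition was measured on 1 array (Illumina HT-12 V4), so the cell line was the replicate (n = 6, or n = 3 a class), and the 2 doses of a line shared its untreated array. A line is also a single established culture, and its genotype and growth conditions cannot be told apart from its class.

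In G1, D-type cyclins bind CDK4 and CDK6, and the complexes phosphorylate the retinoblastoma protein RB1, which otherwise restrains the E2F factors. Released E2F drives the genes of DNA replication, CCNE1 among them, and cyclin E with CDK2 carries the cell into S phase. The INK4 proteins (CDKN2A, CDKN2B, CDKN2C, CDKN2D) block CDK4 and CDK6, whereas CDKN1B (p27) binds the cyclin complexes themselves. Blood cells rely mainly on cyclins D2 and D3 and on CDK6.

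CCNE1 and CDK4 were the genes whose mean log2 change with D9 was below 0 in all 6 lines, and the 250 bases before their annotated starts are shown for that reason (RefSeq, GRCh38.p14, 5′ to 3′ on the strand of the gene). Of the 10 genes, 8 had windows of this kind, 13 in all. The CDK4 window lies on the minus strand at chr12:57752311-57752560 and the CCNE1 window on the plus strand at chr19:29811741-29811990. Capitals mark CACGTG (E-box) and GGGGCGGGG (GC box), searched on both strands.
CDK4: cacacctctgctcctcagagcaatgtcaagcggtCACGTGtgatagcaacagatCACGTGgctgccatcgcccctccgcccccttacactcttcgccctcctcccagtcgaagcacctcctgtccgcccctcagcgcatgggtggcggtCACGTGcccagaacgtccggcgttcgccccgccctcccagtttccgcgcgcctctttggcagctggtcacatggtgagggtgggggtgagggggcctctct
CCNE1: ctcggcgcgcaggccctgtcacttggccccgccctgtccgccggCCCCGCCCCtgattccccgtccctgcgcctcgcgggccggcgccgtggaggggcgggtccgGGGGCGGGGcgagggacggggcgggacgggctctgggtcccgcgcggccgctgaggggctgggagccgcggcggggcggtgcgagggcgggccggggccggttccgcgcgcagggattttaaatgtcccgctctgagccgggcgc
The CDK4 window held 3 CACGTG matches, whose upstream ends were at -216, -196 and -101 from the start. Of 35114 windows of this length in the RefSeq table, 6.35% held at least 1 match and 0.0797% held at least 3. The CCNE1 window, at 81.2% G and C, held no CACGTG but 2 matches to GGGGCGGGG, which 15.1% of all windows held. CDKN1B, at chr12:12717118-12717367 on the plus strand, held neither. Elsewhere in the set, some CCND3 windows also held GGGGCGGGG and some CDKN2C windows held CACGTG. The E2F letters TTTCCCGC, TTTGGCGC, TTTCGCGC and TTTGCCGC (in 2.79% of all windows) and the forkhead letters GTAAACA (2.98%) were in none of the 13 windows of the set. CCND1 and CCND2 had no window, and bases after the starts were not searched. The RB1 window (chr13:48476200-48476449) lay within the gene, which begins at 48303751, and the bases before that start were not searched.

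The arrays were alike in overall brightness, with median raw signals of 53.9 to 67.4, and a raw signal near these values is hereafter called near the array median, where a probe gives no clear level. Blood cell markers were unevenly present: the brightest probe of PTPRC, the pan-leukocyte CD45, was at 47.1 to 72.9 in all 6 untreated lines, and CD33 had no probe. Myeloid LYZ was at 496.5 to 18503.8 in 5 lines and at 50 in KG-1a, while myeloid MPO was at 249.6 to 1136.8 in THP-1, MOLM-14 and Mono-Mac-1 and at 59.4 to 96.3 in the other 3. The progenitor gene CD34 was at 10128.4 in KG-1a and 3178.1 in TF-1, and at 59.5 to 68.9 elsewhere. KIT, also a progenitor gene, was at 365.9 in TF-1 and 154.9 in MV-4-11, but at 68 in KG-1a and 56.1 to 62 elsewhere. KG-1a also had the T cell gene CD3D at 7163.7, with CD3E near the array median at 64. TF-1 alone had high fetal globin (HBG2 27337.9, against 48.9 to 66.6). The epithelial gene EPCAM and the collagens COL1A1 and COL1A2 were at 39.5 to 78.1 in every line, and epithelial KRT18 was at 156.9 in TF-1 and 45.1 to 65.2 elsewhere. Between these lines, 74.1% of all tested probes differed in level (moderated F test in limma, adjusted p under 0.10), and so did 11 of the 12 probes of the G1 set. The exception was the dimmer of 2 CCNE1 probes, at 50 to 72.1 when untreated.

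**Figure D1:**
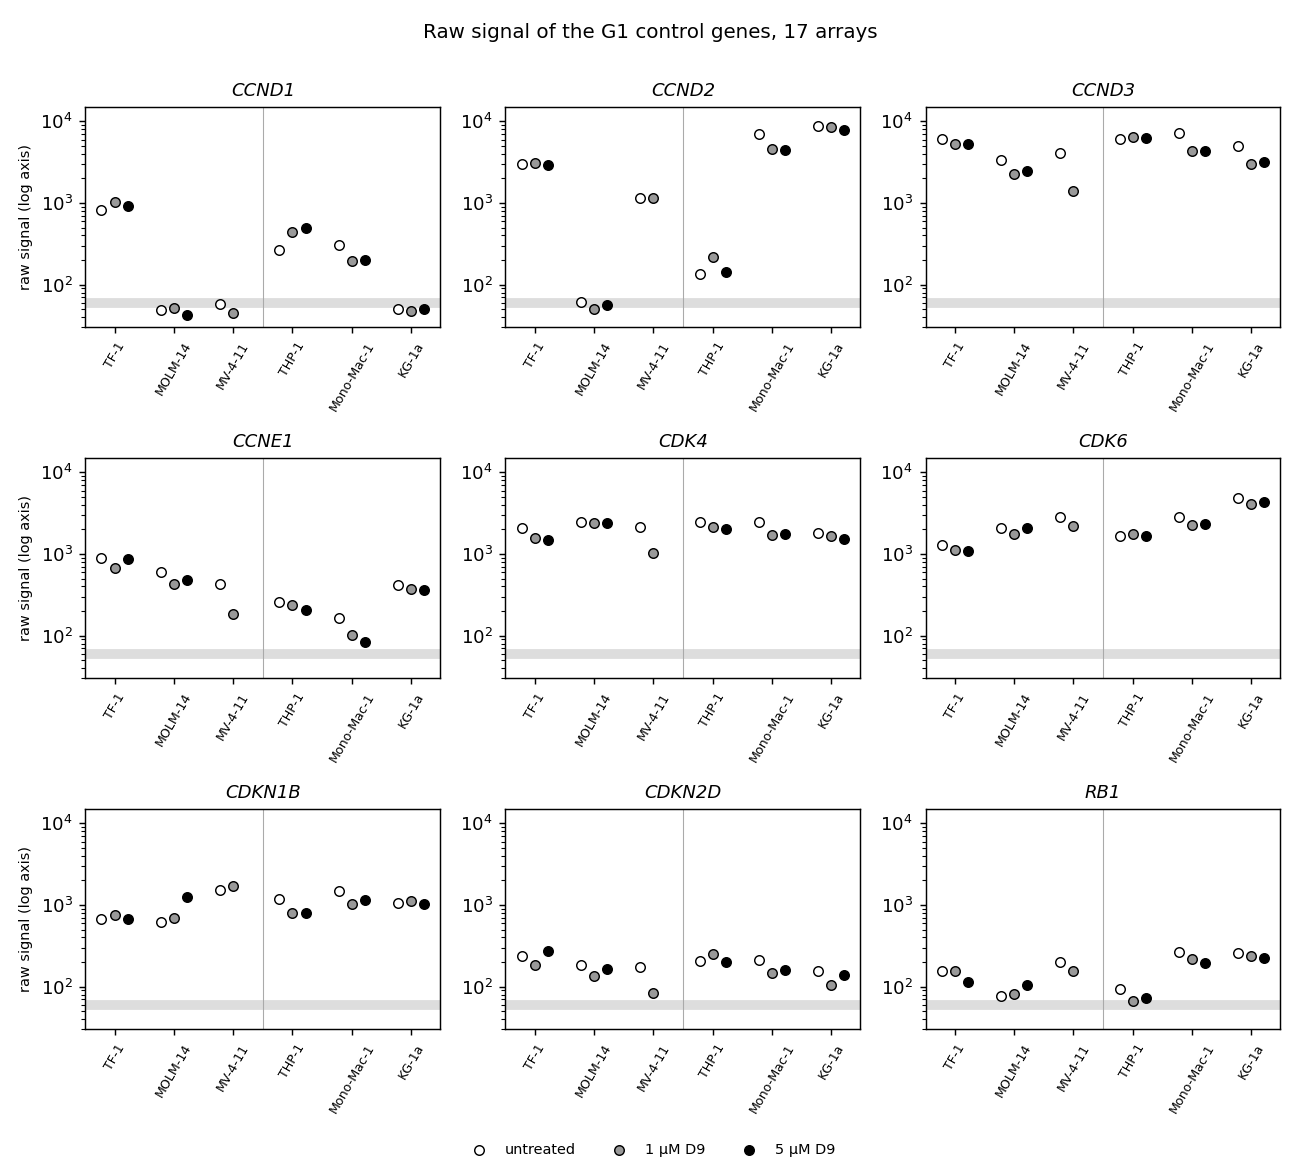
Raw signal (log axis) of the brightest probe of each gene on the 17 arrays, with sensitive lines left and resistant lines right of the thin line and a grey band over the range of array medians (53.9 to 67.4). CCND2 spans the widest range between lines, and CCNE1 drops between the untreated and the 1 μM array in every line.

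CCND2 and CCND1 separated the lines more than any other members. CCND2 ran from near the array median in MOLM-14 to the 99th percentile of probes in KG-1a, CCND1 was clearly above the array median in 3 lines, and CCND3 was bright in all 6. In the untreated cells the brighter CCND2 probe gave 8905.8 in KG-1a, 6960.9 in Mono-Mac-1, 3029.9 in TF-1, 1143.7 in MV-4-11, 134 in THP-1 and 62 in MOLM-14. On the normalised log2 scale this was a range of 6.74, wider than in all but 0.137% of tested probes. Over all arrays of each line, untreated and treated, every neighbour in this order differed beyond the spread of an array. The smallest such gap was 0.64 (95% interval 0.27 to 1.01), between Mono-Mac-1 and TF-1. The dimmer CCND2 probe gave the same order, from 3495.8 in KG-1a to 62.5 in MOLM-14. It did not separate THP-1 (88.8) from MOLM-14, with a gap over all their arrays of 0.30 (-0.06 to 0.66). Ranges above 4 log2 units were found for both CCND2 probes and for 1.73% of all tested probes.

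CCND1 untreated was 826 in TF-1, 310 in Mono-Mac-1 and 264 in THP-1, and 58.5 in MV-4-11, 49.9 in KG-1a and 49.1 in MOLM-14. The last 3 lines were near the array median and could not be ordered, whereas TF-1 exceeded THP-1 by 1.03 (0.58 to 1.48) over all arrays of both lines. CCND3 untreated was 7243.9 (Mono-Mac-1), 6052.1 (TF-1), 6025.7 (THP-1), 5005.7 (KG-1a), 4135.6 (MV-4-11) and 3406.6 (MOLM-14). Its range of 0.80 was exceeded by 52.2% of tested probes. MOLM-14 was thus the line in which both CCND1 and CCND2 were near the array median while CCND3 was measured. The classes overlapped for each of these cyclins, the untreated sensitive minus resistant difference being -0.14 ± 1.18 (SE) for CCND1, -1.61 ± 2.07 for CCND2 and -0.35 ± 0.25 for CCND3 (limma, adjusted p = 1 for each).

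With D9 the D-type cyclins differed from line to line. CCND3 had its lowest ratio to untreated in MV-4-11, from 4135.6 to 1418.4 at 1 μM. In KG-1a CCND3 read 5005.7 untreated, 3039.6 at 1 μM and 3217.4 at 5 μM, and in MOLM-14 it read 3406.6, 2280.5 and 2491.1. Mono-Mac-1 went from 7243.9 to 4298.5 and 4343, and TF-1 from 6052.1 to 5227.1 and 5300.9. THP-1 was the exception, at 6025.7, 6523 and 6224.3. CCND3 was thus below its untreated level in 5 of 6 lines, by 0.14 to 1.13 log2 units on the mean of the doses, and 0.30 above it in THP-1. Over the 6 lines the change was -0.46 ± 0.16 (SE, 95% interval -0.84 to -0.08), with an adjusted p of 0.182 in limma, which missed the threshold of 0.10.

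CCND1 differed in direction among the 3 lines in which it was clearly above the array median. In THP-1 it read 264 untreated, 435.2 at 1 μM and 499.3 at 5 μM, which were log2 changes of 0.80 and 1.05. In Mono-Mac-1 it read 310, 197.1 and 200.5 (-0.45 and -0.50), and in TF-1 826, 1036.2 and 918.7 (0.28 and 0.29). Over the 6 lines the mean was 0.08 ± 0.17 (adjusted p = 0.871), with an interval from -0.31 to 0.46.

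CCND2 gave a like picture. In Mono-Mac-1 the brighter probe went from 6960.9 to 4581.7 and 4508.1 and the dimmer one from 3095 to 1762.9 and 1631.8, both lower at both doses. In KG-1a it stayed between 7937.2 and 8905.8 on all 3 arrays, and in TF-1 between 2919.6 and 3100. The probes disagreed in THP-1, where the brighter one read 134, 216.6 and 142.9 and the dimmer one 88.8, 78.7 and 65.2. In MV-4-11 the raw signal was 1143.7 untreated and 1155 at 1 μM, which quantile normalisation put at a change of 0.37, median scaling at 0.04 and the authors' own values at 0.13. The mean over 6 lines was 0.04 ± 0.13 (adjusted p = 0.909) for the brighter probe and -0.11 ± 0.11 (adjusted p = 0.658) for the dimmer one. The probes' levels correlated at r = 0.982 over the 17 arrays, which are 6 lines measured up to 3 times, but their D9 changes had the same sign in only 3 of 6 lines.

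Of the kinases, CDK4 varied little between lines and CDK6 more. CDK4 untreated lay between 1801.3 in KG-1a and 2452.4 in Mono-Mac-1, a range of 0.67 log2 units that 58.1% of tested probes exceeded. CDK6, the partner used most in blood cells, was 4893.9 (KG-1a), 2870 (MV-4-11), 2808.7 (Mono-Mac-1), 2057.6 (MOLM-14), 1667.2 (THP-1) and 1305.8 (TF-1). Over all arrays of the lines, KG-1a exceeded the next line by 0.54 (0.31 to 0.76) and TF-1 was 0.66 (0.46 to 0.86) under the line above it. Among the 4 lines between, none could be told from the next in order. Their fitted levels still fell from 11.46 in MV-4-11 to 10.93 in THP-1, and these ends were not compared directly.

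With D9, CDK4 in MV-4-11 was 2115.7 untreated and 1014.7 at 1 μM. In Mono-Mac-1 it read 2452.4, 1728.7 and 1775.1 with rising dose, in TF-1 2068.5, 1558.2 and 1491, and in THP-1 2437.9, 2138.4 and 2032. In KG-1a it read 1801.3, 1645.1 and 1522.5. MOLM-14 held level at 2445.9, 2419 and 2424.3. The line means were all below 0, from -0.02 in MOLM-14 to -0.70 in MV-4-11, a pattern that 5.9% of all tested probes and 2 of the 12 probes of the set had. Over 6 lines the change was -0.29 ± 0.09 (-0.50 to -0.08, adjusted p = 0.141). Without MOLM-14, the line with the change nearest 0, it was necessarily lower, at -0.37 ± 0.08. It then passed the threshold (adjusted p = 0.0788, limma), in a fit that called 4.84% of all tested probes. Leaving out any other line instead, it did not pass (adjusted p from 0.197 to 0.349, limma). CDK6 went from 2870 to 2191.9 in MV-4-11 and from 4893.9 to 4097.3 and 4294.4 in KG-1a, and THP-1 read 1667.2, 1738.6 and 1653.4. Its mean was -0.09 ± 0.07 (-0.25 to 0.07, adjusted p = 0.566).

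CCNE1, the cyclin that acts at the G1 to S transition, was the member closest to the threshold for D9. Its untreated levels narrowly did not overlap between the classes, a pattern that 6.45% of all tested probes had. Its brighter probe read 431.3 in MV-4-11, 607.3 in MOLM-14 and 891.5 in TF-1 (sensitive), and 421 in KG-1a, 260.1 in THP-1 and 165.8 in Mono-Mac-1 (resistant). The lowest sensitive line and the highest resistant line were nearly equal, and over all their arrays KG-1a was above MV-4-11 by 0.15 (95% interval of the difference -0.27 to 0.57). The untreated sensitive minus resistant difference was 1.28 ± 0.40 log2 units (0.27 to 2.29, unadjusted p = 0.0218, limma), and the adjusted p was 1. Untreated levels that did not overlap between classes were found for 1 of 12 probes of the set and for 6.45% of all tested probes (3.13% with the sensitive lines higher), and no probe of any gene passed the adjusted test of this comparison (0% called, and 2.11% at an unadjusted p under 0.05).

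In MV-4-11 CCNE1 read 431.3 untreated and 182.4 at 1 μM. In Mono-Mac-1 it read 165.8, 100.8 and 82.7 with rising dose, in MOLM-14 607.3, 434.5 and 473.5, in KG-1a 421, 376.7 and 359.3 and in THP-1 260.1, 240.3 and 208.5. TF-1 read 891.5, 683 and 873.2, so its 5 μM array was back near the untreated one. All raw D9 readings were thus lower than their untreated array, 9 of 11 after normalisation, and the line means ran from -0.05 in THP-1 to -1.01 in MV-4-11. The change over 6 lines was -0.43 ± 0.12 (-0.70 to -0.16), with an adjusted p of 0.104 in limma. The dimmer CCNE1 probe, near the array median on all arrays, read 44.7 to 73.7 and gave 0.03 ± 0.05, so it carried no measurement of the gene.

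**Figure D2:**
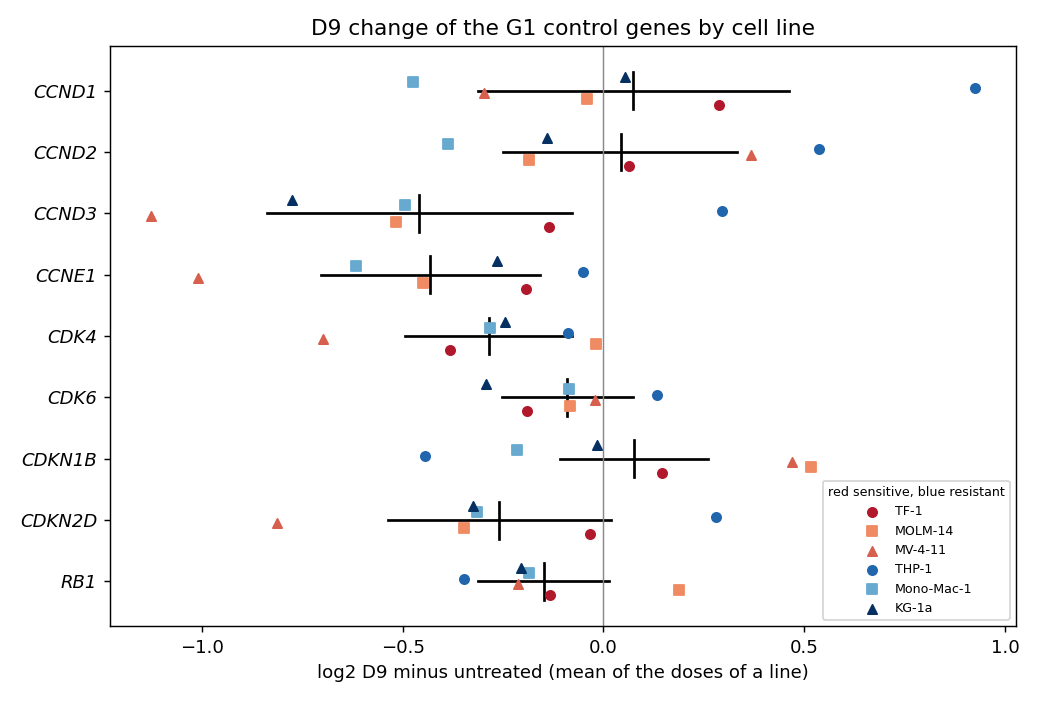
Log2 change with D9 (mean of the doses of a line minus its untreated array) of the brightest tested probe of each gene, 1 marker a line, with the mean over 6 lines (black tick) and its 95% interval (bar). CCND3, CCNE1 and CDK4 have intervals below 0 (unadjusted), while the sensitive lines lie right of the resistant lines for CDKN1B alone.

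Of the inhibitors, CDKN1B had D9 changes that did not overlap between the classes, with its brighter probe and not with its dimmer one. This was a pattern that 7.7% of all tested probes had. With its brighter probe, MOLM-14 read 626.2 untreated, 688.5 at 1 μM and 1264.4 at 5 μM, which were log2 changes of 0.15 and 0.88. MV-4-11 read 1548.4 and 1712.7, and TF-1 664.8, 759.7 and 671.7. Among the resistant lines THP-1 read 1187, 802.7 and 797.5, Mono-Mac-1 1490.1, 1042.6 and 1162, and KG-1a 1054, 1129.3 and 1034. The line means were 0.15 in TF-1, 0.47 in MV-4-11 and 0.52 in MOLM-14, against -0.44 in THP-1, -0.22 in Mono-Mac-1 and -0.02 in KG-1a, and so did not overlap. Changes that did not overlap between classes were found for 1 of 12 probes of the set and for 7.7% of all tested probes (3.71% with the sensitive lines higher). The classes stayed apart with median scaling and in the authors' values, although the change in MV-4-11 was then 0.17 and 0.26. With median scaling the gap was narrow, the resistant KG-1a being above untreated at 0.082 and the sensitive TF-1 at 0.145.

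The difference, sensitive minus resistant, was 0.60 ± 0.16 log2 units (0.23 to 0.97, unadjusted p = 0.0057, limma), and its adjusted p was 0.999. No probe of any gene was called in this comparison (0%), and at an unadjusted p under 0.05 there were 755 probes (2.66%), CDKN1B being the 1 member among them. The significance analysis of microarrays (SAM) named in the study, at a 10% false discovery rate, called 992 probes (3.49%), with the brighter CDKN1B probe the 1 member called. SAM was run on 11 treated minus untreated columns and so counts 2 doses of a line as separate samples. The dimmer CDKN1B probe went the same way in MOLM-14 (161.8, 202.7 and 295.8), but in TF-1 it read 307.9, 245.9 and 279.4, below untreated, and its class difference was 0.21 ± 0.17 (adjusted p = 0.999). In MV-4-11 its raw signal was 802.8 untreated and 741.4 at 1 μM, which gave 0.19 after quantile normalisation and -0.09 after median scaling. Across all 6 lines the mean of the brighter probe was 0.08 ± 0.08 (adjusted p = 0.691).

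**Figure D3:**
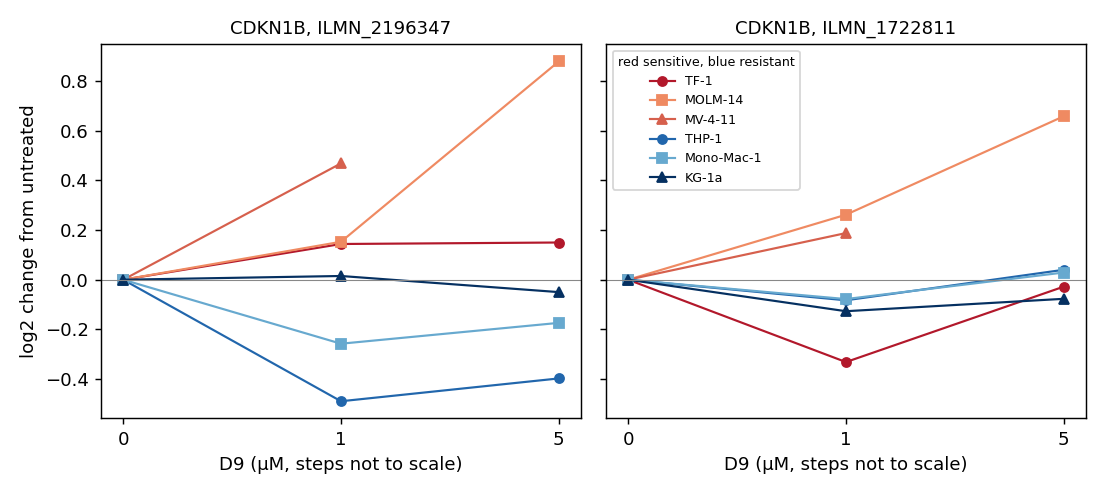
Log2 change of both CDKN1B probes from the untreated array of each line, by D9 dose (positions of 0, 1 and 5 μM are not to scale), red for sensitive and blue for resistant lines, 1 array a point. MOLM-14 reaches 0.88 and 0.66 at 5 μM, and TF-1 is above 0 with the brighter probe and below 0 with the dimmer one.

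The step from 1 to 5 μM could be measured in 5 lines. For the brighter CDKN1B probe it was 0.73 in MOLM-14 and between -0.07 and 0.09 in the other 4 lines. The mean step was 0.17 ± 0.10 (adjusted p = 0.578) with MOLM-14 and 0.03 ± 0.07 without it. For the dimmer probe it was 0.20 ± 0.07 (unadjusted p = 0.017, adjusted p = 0.316, limma), with a positive step in 5 of 5 lines. None of the 12 probes was called for the step, where 0.546% of all tested probes were, and at an unadjusted p under 0.05 it was 1 of 12 against 11.4%. For the remaining 10 probes the mean step lay between -0.08 and 0.19.

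CDKN2D (p19), an INK4 inhibitor of CDK4 and CDK6, was measured at modest signals. Untreated it read 240.5 (TF-1), 213.6 (Mono-Mac-1), 204 (THP-1), 182.8 (MOLM-14), 172.4 (MV-4-11) and 157.5 (KG-1a). With D9 it was 82.9 in MV-4-11 and 148.1 and 158.9 in Mono-Mac-1, whereas TF-1 crossed its untreated level with 183.5 at 1 μM and 276.8 at 5 μM, and THP-1 read 249.2 and 199.1. It was below untreated in 5 of 6 lines on the mean of the doses, with -0.26 ± 0.12 over all (-0.54 to 0.02, adjusted p = 0.299). Its other probe, under the filter, read 35.6 to 55.8 on the 17 arrays.

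RB1, the target of the cyclin D kinases, read low signals throughout. Untreated it read 262.4 (Mono-Mac-1), 260.4 (KG-1a), 202 (MV-4-11), 154 (TF-1), 92.6 (THP-1) and 77.2 (MOLM-14). Over all arrays of the lines, the first 3 could not be told apart. MV-4-11 exceeded TF-1 by 0.50 (0.19 to 0.81) and TF-1 exceeded THP-1 by 0.68 (0.40 to 0.95) in that fit. With D9 the highest and lowest readings in a line were 219.3 and 197.3 in Mono-Mac-1, 238.1 and 223.9 in KG-1a, 157.2 and 115.3 in TF-1 and 71.8 and 66.7 in THP-1, and 154 in MV-4-11. MOLM-14 went the other way, with 81.3 and 104.4. The mean was -0.15 ± 0.07 (-0.31 to 0.01, adjusted p = 0.307), with 5 of 6 lines below 0.

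None of the 12 probes was called for D9 over 6 lines, where 5.59% of all tested probes were, and at an unadjusted p under 0.05 it was 3 of 12 (CCND3, CCNE1 and CDK4) against 19.1%. In the sensitive lines alone 0 of 12 were called (0.0317% of all) and 5 of 12 had an unadjusted p under 0.05 (12.4% of all). These were CCND3 (-0.59 ± 0.23), CCNE1 (-0.55 ± 0.17), CDK4 (-0.37 ± 0.13) and CDKN2D (-0.40 ± 0.17), lower, and CDKN1B (0.38 ± 0.11), higher. In the resistant lines 0 of 12 were called (0.155% of all), and at that level it was RB1 alone, at -0.25 ± 0.10, against 11.8% of all. RB1 was dim, and its D9 readings in THP-1 (66.7 and 71.8) were near the array median. The classes were not shown to differ in CCND3, CCNE1, CDK4 or CDKN2D, whose sensitive minus resistant differences were -0.16 to -0.28 with intervals that all included 0. The median change over the brightest probe of each of the 9 genes was -0.15, beside -0.003 over all tested probes.

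The lines contributed unequally. On the mean of a line's doses, CCND3 and CCNE1 in MV-4-11 changed by 2-fold or more, among 2.26% of that line's tested probes, but this line had a single D9 array where the others had 2. At a single dose, CCND1 in THP-1 reached 2.08-fold at 5 μM. All 12 probes of the set were below untreated in Mono-Mac-1, where 50.7% of all tested probes were. These probes stand for 9 genes and include the dimmer CCNE1 probe (-0.07), which was near the array median. In MV-4-11 the scaling also mattered most: over the brightest 20% of probes on the array its median change was 0.000 after quantile normalisation, -0.20 after median scaling and -0.12 in the authors' values. CCND3 in that line was accordingly -1.13, -1.50 and -1.43, CDK4 -0.70, -1.02 and -0.94, and CDK6 -0.02, -0.36 and -0.27.

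The same 2 lines had the lowest values of the genes that E2F drives in S phase. Of 20 such genes listed 19 were tested, none passed for D9 over 6 lines, and all 19 were below 0 with a median of -0.45. Lowest were CDC45, a helicase subunit, at -0.92 ± 0.27 (adjusted p = 0.125), and TYMS, the thymidylate synthase, at -0.78 ± 0.32 (adjusted p = 0.243). By line the median of the list was 0.09 in TF-1, -0.12 in MOLM-14, -0.16 in KG-1a, -0.18 in THP-1, -1.10 in Mono-Mac-1 and -1.47 in MV-4-11. The 12 proliferation genes of G2 and M had medians of 0.20, -0.09, -0.14, -0.02, -0.66 and -1.50 in the same order of lines. Among them HMMR alone was called over the 6 lines, falling by 0.82 ± 0.20 (adjusted p = 0.0867, limma), where 5.59% of all tested probes were called. It alone was also called for the step in dose, falling by 0.41 ± 0.07 (adjusted p = 0.0375, limma), where 0.546% of all were. How far the cycling state of the cultures entered into the CCND3, CCNE1, CDK4 and CDKN2D values was not tested.

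**Figure D4:**
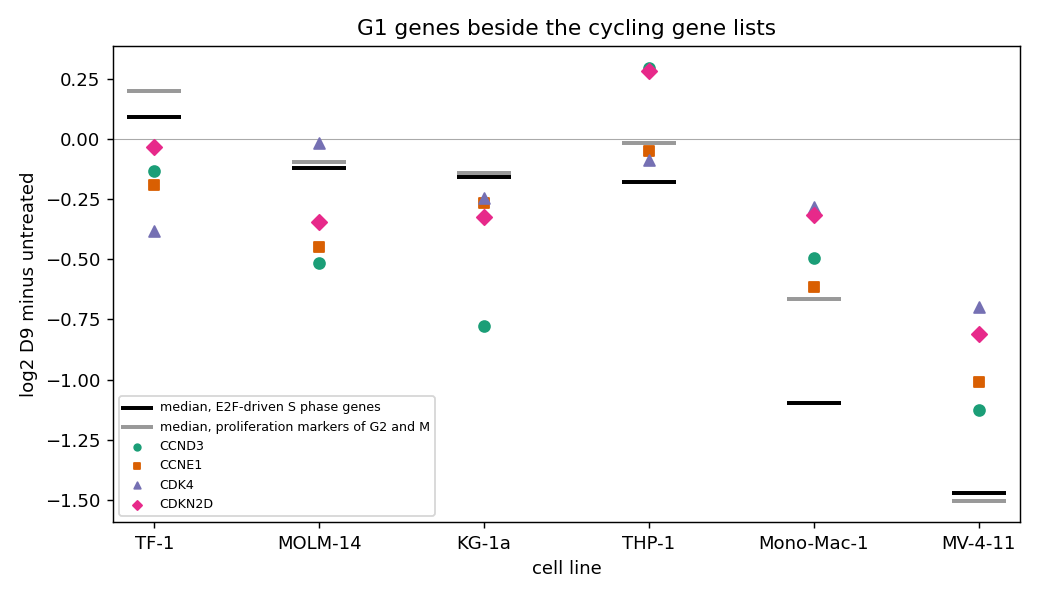
Log2 change with D9 of CCND3, CCNE1, CDK4 and CDKN2D in each line (points) beside the median change of 19 S phase genes (black bars) and 12 genes of G2 and M (grey bars). Mono-Mac-1 and MV-4-11 have list medians from -0.66 to -1.50, and the other lines from -0.18 to 0.20.

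In the same order of lines, CCND3 was at -0.135 in TF-1, -0.517 in MOLM-14, -0.775 in KG-1a, 0.296 in THP-1, -0.495 in Mono-Mac-1 and -1.127 in MV-4-11. How these values relate to the lists was not tested. CDKN1B in MV-4-11, where the list medians were -1.47 and -1.50, depended on scaling and probe. Its brighter probe was at 0.47 after quantile normalisation and 0.17 after median scaling, and its dimmer probe at 0.19 and -0.09.

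Around the members, the RB relatives and E2F factors had 0 of 12 called for D9 over 6 lines, with 11 at or below 0 and a median of -0.23. E2F2 was at -0.52 ± 0.23 (adjusted p = 0.285), E2F7 at -0.48 ± 0.15 (adjusted p = 0.148), and RBL2, the p130 relative of RB1, at 0.11 ± 0.09 (adjusted p = 0.595). Of 13 other cyclins, kinases and inhibitors of G1 and S, 12 were tested and 1 was called, where 5.59% of all tested probes were. The 1 called was CDK7, the kinase that phosphorylates other CDKs within the CDK-activating complex, which fell by 0.44 ± 0.08 (adjusted p = 0.0449, limma). CDK7 was lower in 6 of 6 lines, as were 5.9% of all tested probes, from -0.63 in TF-1 to -0.38 in MV-4-11 and -0.04 in MOLM-14. Its partners in that complex, CCNH and MNAT1, were at 0.25 ± 0.07 (adjusted p = 0.106) and 0.11 ± 0.10 (adjusted p = 0.652). CDC25A, the phosphatase that activates cyclin E kinase, was at -0.68 ± 0.24 (adjusted p = 0.186).

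The INK4 gene CDKN2A also differed widely between untreated lines. It read 444.9 in MV-4-11, 661.2 in MOLM-14 and 2300 in TF-1, and 115.6 in KG-1a, 55.3 in THP-1 and 49.3 in Mono-Mac-1, the last 2 being near the array median. The classes did not overlap, with a difference of 3.50 ± 0.64 (adjusted p = 1). This pattern was found for 6.45% of all tested probes (3.13% with the sensitive lines higher). None of the 12 tested genes of this list was called in the untreated comparison. The genes for turnover of G1 cyclins and CDKN1B gave 0 of 8 called and a median of -0.01. The extremes were CKS1B, a cofactor of the SKP2 ligase that targets CDKN1B, at -0.61 ± 0.20 (adjusted p = 0.156), and FBXW7, which targets cyclin E, at 0.33 ± 0.11 (adjusted p = 0.156). Of the 10 reference genes listed 8 were tested, with a median of -0.13. GAPDH alone was called, falling by 0.30 ± 0.06 (adjusted p = 0.0527, limma), where 5.59% of all tested probes were called.

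The tested probes of other genes whose log2 level was most like a member's over the 17 arrays were sought for the 3 members of widest untreated range, by Pearson correlation. For CCND2 they were MRPL43 (r = 0.969), DUSP11 (0.967) and SPRTN (0.965). For CCND1 they were DSC2 (0.975), ETV4 (0.968) and CCNO (0.956), and for CCNE1 SRSF5 (0.96 and 0.951 with its 2 probes) and ELK1 (0.957). These values compare 28394 probes over 6 lines measured up to 3 times.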

How the data were processed

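Levels were measured on Illumina HT-12 V4 arrays, 1 array per line and condition. The authors deposited a table of probe intensity without normalisation, from GenomeStudio per the labels (version not given in the sources used here), and a table of log2 values. GeneSpring GX was named in the methods. The deposited log2 values were rebuilt within 0.000613 for the probes of the set, as log2 of the signal (at least 1) minus the 75th percentile of an array and the median of a probe.

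Raw intensities were corrected with normexp (offset 50), quantile normalised and put on the log2 scale with limma 3.58.1 in R 4.3.3. Probes with a mean level above the 40th percentile (6.16) were tested. Detection p-values were not used here. Of the probes, 30113 had 1 gene symbol, 8 several and 17202 none. Fold changes are on the scale of signal plus offset, which understates changes of dim probes.

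A line effect was the mean log2 of its D9 arrays minus its untreated array, and limma (lmFit and eBayes, 4 residual degrees of freedom, Benjamini-Hochberg over all tested probes, two-sided) was run on 1 value a line. Called means an adjusted p under 0.10. Levels between lines came from a fit of line and dose on 17 arrays (9 residual degrees of freedom), whose residual holds technical spread and each line's own response, and 95% intervals are unadjusted. Nothing states that arrays came from separate cultures of a line. The labels give no batch. The fits were tested on simulated data. Alternatives covered normalisation, offset, filter, threshold, doses, pairing, SAM, the methods' t-test and leaving out each line.

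The genes and the lists were chosen with earlier results of these data known. All 9 genes with probes are named, by the brightest probe where there are several, and of each list the called genes or those with the largest changes. Gene starts and promoter windows are from RefSeq (GRCh38.p14). Among 24 sets of 6 values examined for a line far from the rest, none was found.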

Additional observations from a re-analysis of the deposited data

How the results depend on the processing

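CCND3, CCNE1, CDK4, CDK6, CDKN1B, CDKN2D and RB1 kept the direction of their mean D9 change in all 17 alternatives, and CDKN2D ranged from -0.36 to -0.04. Part of this was fixed in advance, because the filter, threshold and pairing settings cannot change the estimate. Leaving out a line could not reverse CCNE1 or CDK4 either, which were below 0 in all 6 lines. The count of called probes over 6 lines, 0 of 12, became 2 with the authors' log2 values (CCND3 -0.55, adjusted p = 0.0931, and CCNE1 -0.48, 0.0743, with 7.2% of all probes called), 1 with offset 16 (CCNE1 -0.50, 0.0727, with 7.6% of all probes called) and 1 of 11 with the filter at the 60th percentile (CCNE1, 0.0782, with 10.5%). With every array counted and the line as a block, 3 were called (CCND3 -0.43, 0.0396, CCNE1 -0.41, 0.0251, and CDK4 -0.27, 0.0252), beside 16% of all probes. Leaving out 1 line gave counts of 0 to 1, the 1 being CDK4 without MOLM-14 (4.84% of all probes called). For the class difference SAM called 1 probe of the set (CDKN1B, 0.58), where limma and the methods' t-test called 0. CDKN1B kept its sign for that difference in 19 of 19 alternatives (0.49 to 0.72). Its classes did not overlap, so leaving out a line could not reverse it, nor could the filter, threshold and pairing settings. CCND1 changed sign without TF-1 (-0.001) and without THP-1 (-0.114), in a range over left-out lines of -0.114 to 0.236. CCND2 changed sign with the authors' values (-0.049), median scaling (-0.058), 5 μM alone (-0.050), without THP-1 (-0.091) and without MV-4-11 (-0.028), in a range over left-out lines of -0.091 to 0.140. The cause was not tested. The median of all probes was -0.003, -0.013 and -0.016 with quantile, median and the authors' scaling. The main fit pairs each line's D9 arrays with its own untreated array, and without that pairing the count stayed at 0 of 12, with 0 of 28394 probes called in limma. Apart from that fit, the count over all probes, 1588, ranged from 108 without Mono-Mac-1 to 4547 with every array counted. With 1 array per condition, 6 lines and dim signals for RB1 and CDKN2D, the precision is set by the number of lines.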
